A study of Mus musculus with 4 samples.

Results

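Whole mouse islets held at low or high glucose were profiled by RNA-seq, and 10 genes that beta cells normally keep silent or very low were followed in them: *Ldha*, *Slc16a1*, *Pdgfra*, *Igfbp4*, *Cxcl12*, *Acot7*, *Oat*, *Maf*, *Zfp36l1* and *Smad3*. They were found by symbol in the deposited table, which holds 24012 gene symbols, and all 10 were there. Where a symbol had several transcript entries, the one with the highest mean stood for the gene. The 4 libraries were made from islets of wild type C57bl6 male mice of 3 months of age, combined into a pool. After a night at 11 mM glucose and 2 h of starvation at 2.8 mM, the islets were divided between 2.8 mM glucose (2 libraries) and 16.8 mM glucose (2 libraries), with 100 islets per library. The length of this last step is 12 h for both groups in the study's design, but the labels of the 2.8 mM samples name 2 h and only those of the 16.8 mM samples name 12 h. Time and glucose cannot be told apart if the labels are right. Because the islets came from a pool, the spread between replicates is that of separate islet samples and libraries, not of separate animals.

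Every cell of the body runs glycolysis, but beta cells couple it tightly to mitochondrial oxidation, because the ATP made there closes the channels that trigger insulin release. Genes that would open a side road are therefore held down in beta cells and are often called disallowed genes. *Ldha*, which turns pyruvate into lactate, and *Slc16a1*, the monocarboxylate transporter MCT1 that carries pyruvate and lactate across the plasma membrane, are the classical examples. The others encode a growth factor receptor, secreted signals, metabolic enzymes and regulators of transcription or RNA stability. Other cells of the islet, such as endothelial cells, stromal cells, macrophages and duct cells, use several of these genes freely, so that a value from a whole islet is a sum over cell types. More cells of a type and more RNA per cell cannot be told apart in such data.

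The promoters of *Ldha* and *Slc16a1* are shown because they alone, among the listed genes with a promoter sequence at hand, hold the E-box CACGTG, and that of *Slc16a3*, the lactate exporter MCT4, because this gene rose together with *Ldha*. E-boxes are bound by basic helix-loop-helix factors, among them the carbohydrate response factors, and ACGTG is the core bound by hypoxia-inducible factors. Each sequence is the 250 bases before the RefSeq start site (GRCm38.p6), written 5′ to 3′ on the gene's strand. The lines are *Ldha* at chr7:46845554-46845803 on the plus strand, *Slc16a1* at chr3:104638414-104638663 on the plus strand and *Slc16a3* at chr11:120948817-120949066 on the plus strand. Capitals mark CACGTG and any further ACGTG on either strand.
Ldha: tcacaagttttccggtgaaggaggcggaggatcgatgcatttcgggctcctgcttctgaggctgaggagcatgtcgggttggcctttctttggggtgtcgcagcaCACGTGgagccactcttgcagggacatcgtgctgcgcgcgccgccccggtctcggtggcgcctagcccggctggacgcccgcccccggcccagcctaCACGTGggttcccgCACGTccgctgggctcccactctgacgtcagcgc
Slc16a1: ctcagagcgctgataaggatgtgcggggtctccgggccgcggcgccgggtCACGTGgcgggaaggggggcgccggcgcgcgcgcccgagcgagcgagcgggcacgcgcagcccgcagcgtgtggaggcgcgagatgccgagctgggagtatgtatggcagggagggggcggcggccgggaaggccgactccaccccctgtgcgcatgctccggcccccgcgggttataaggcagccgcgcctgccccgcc
Slc16a3: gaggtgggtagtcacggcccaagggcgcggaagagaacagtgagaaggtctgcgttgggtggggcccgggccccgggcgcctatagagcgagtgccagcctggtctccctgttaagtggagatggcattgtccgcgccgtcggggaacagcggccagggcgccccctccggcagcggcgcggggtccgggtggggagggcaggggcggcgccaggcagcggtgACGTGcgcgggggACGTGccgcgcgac

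*Ldha* held CACGTG 145 and 48 bases before its start, and *Slc16a1* held it 200 bases before its start. The *Slc16a3* window had no CACGTG and held ACGTG 27 and 14 bases before the start. CACGTG reads the same on both strands and contains ACGTG on each of them. Of the listed genes, 9 had a promoter sequence, in 10 windows because *Ldha* has 2 annotated starts. The second *Ldha* start, at chr7:46846832-46847081, held neither motif, nor did the windows of the other 7 genes. The read numbers given for *Ldha* rest on the shorter span, that from the second start. Which start belongs to the entry that gave its RPKM was not determined. Over 32851 promoter windows of the same length, 6.02% held CACGTG and 16.6% held ACGTG. The matches are a description of the sequence and were not tested for binding. *Zfp36l1*, the other listed gene that rose, was among those without either motif. Apart from *Slc16a3*, the windows of genes outside the list that rose were not examined one by one.

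Most of the listed genes had low values, as did most genes of the table. RPKM is a read number scaled to the library's depth and to each kilobase of transcript, and here the kilobases are those of the whole genomic span of a transcript, introns included. On that scale 8 of the 10 genes had a mean under 1 RPKM over the 4 libraries, as did 71.6% of all gene symbols. *Ldha* stood apart with a mean of 6.43 RPKM, at percentile 93.6 of the gene means, and *Zfp36l1* followed with 1.20 RPKM at percentile 74.5. *Pdgfra* was lowest, with 0.0151 RPKM at percentile 28.2, and *Oat*, at percentile 57.7, was the highest of those under 1 RPKM. Because a long intron lowers such a value, the levels were also set against the length of the exons alone, as if all reads lay in exons. That length joins the exons of all annotated transcripts of a gene, so it can exceed a single mRNA and understate the level. On the exon scale the mean was 18.4 for *Ldha*, 3.43 for *Oat*, 2.11 for *Zfp36l1*, 1.25 for *Acot7* and 1.08 for *Igfbp4*, and 5 of the 10 genes were under 1. The share of all gene symbols under 1 on the exon scale was not computed. *Acot7* gained most, because its span is 33.9 times the length of its exons. *Maf* has a single exon in the entry used and kept its value of 0.0778. The depth of the libraries, recovered from the steps in their lowest values, was between 50810000 and 60720000 reads, so that 1 read in 1 kb was worth 0.0165 to 0.0197 RPKM.

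**Figure D1:**
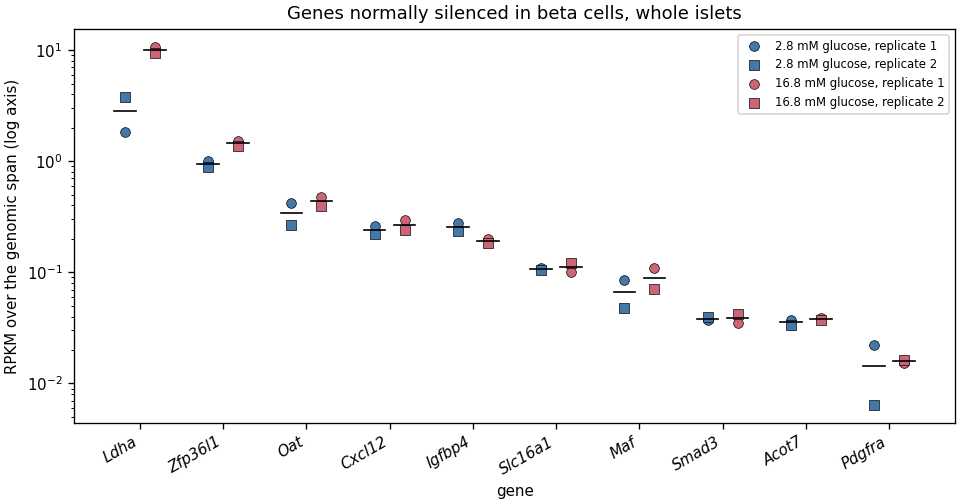
RPKM of the 10 listed genes in each of the 4 libraries on a log axis, in order of their mean level, with circles for replicate 1, squares for replicate 2 and bars for the group means. *Ldha* rose from a mean of 2.82 to 10.05 RPKM, and the *Pdgfra* value of 2.8 mM replicate 2, at 0.0064 RPKM, is the lowest point.

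Of the 10 genes, *Ldha* and *Zfp36l1* were higher at 16.8 mM glucose and none passed the test as lower. These were also the only listed genes that reached the minimum of the main test, a mean over the 4 libraries of 1 RPKM (limma on log2(RPKM + 0.5), Benjamini-Hochberg adjustment over 7867 entries). In that test 10.7% of all entries were called higher and 22.8% lower. The other 8 genes were too low for it and were examined with voom, limma's method for counts, on reads reconstructed from RPKM, span and depth, over 19139 entries with a mean of at least 20 reads. In the voom fit 13.2% of all entries were called higher and 28.4% lower. It held 9 of the 10 genes, of which 2 were called higher and 0 lower, at an adjusted p under 0.05. At an unadjusted p under 0.05 the counts were the same. The median log2 fold change of the 9 genes was 0.14, beside −0.12 over all entries.

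**Figure D2:**
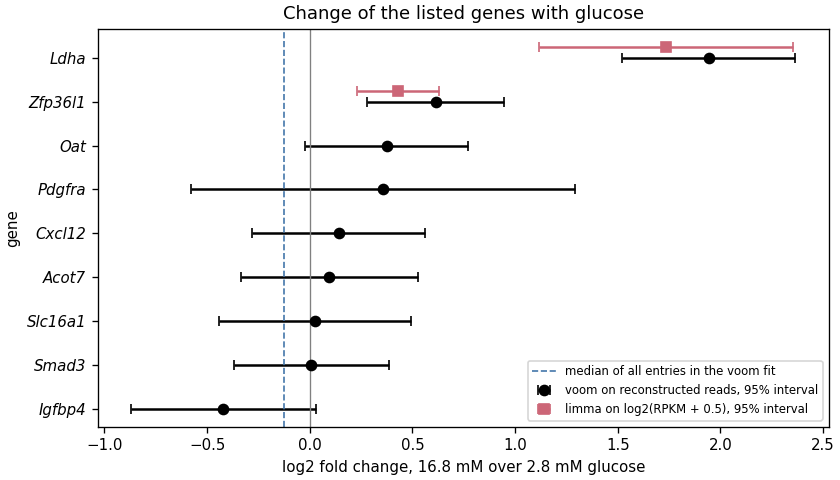
Log2 fold change of the listed genes at 16.8 mM over 2.8 mM glucose with 95% intervals, from voom on reconstructed reads (black circles, 9 genes) and from limma on log2(RPKM + 0.5) (red squares, 2 genes). The intervals of *Ldha* and *Zfp36l1* lie above 0 in both fits, the intervals of the other 7 genes reach across 0, and the dashed line is the median of all entries, −0.12.

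*Ldha* encodes the muscle form of lactate dehydrogenase and lies at chr7:54096845-54110997 on the plus strand (mm9, the build of the table, as for all gene positions below). Its level was 1.82 and 3.81 RPKM in the 2.8 mM libraries and 10.7 and 9.39 RPKM in the 16.8 mM libraries. The groups did not overlap, and the 2.8 mM replicates differed from each other by 2.10 times, more than those of any other listed gene apart from *Pdgfra*. The means were 2.82 ± 1.41 and 10.05 ± 0.93 RPKM (SD, n = 2 libraries each), a ratio of 3.57. On the log2(RPKM + 0.5) scale the change was 1.74 (SE 0.26, limma adjusted p = 0.00379), and in voom it was 1.94 (SE 0.20, adjusted p = 1.17e-06). Without 2.8 mM replicate 1 the log2 change was 1.29, and without 2.8 mM replicate 2 it was 2.18. The call was lost when entries of every level entered the fit (adjusted p = 0.0933). The other transcript entries of *Ldha* changed by nearly the same ratio, 3.59. *Ldha* has processed pseudogenes in the mouse genome, and how the authors placed reads that match both was not stated for these libraries.

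*Slc16a1*, at chr3:104442591-104462385 on the plus strand, did not follow *Ldha*. It stood at 0.110 and 0.106 RPKM at 2.8 mM and at 0.102 and 0.120 RPKM at 16.8 mM glucose, about 109 to 127 reads per library. The groups overlapped. The ratio of the means was 1.03, and the voom log2 change was 0.03, with a 95% interval of −0.44 to 0.49 (adjusted p = 0.933). That interval leaves room for a fold between 0.737 and 1.41 and does not reach the change of *Ldha*.

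The genes around pyruvate and lactate moved in both directions. Of 20 partner genes in this list, 12 could be tested, of which 4 were higher and 2 lower, and the median log2 change was −0.04, beside −0.11 over all tested entries. In voom 7 of 20 were higher and 5 lower. The 4 that rose were an exporter, its partner protein and enzymes on either side of pyruvate. *Slc16a3*, which encodes MCT4, stood at 0.243 and 0.484 RPKM at 2.8 mM and at 2.33 and 1.94 RPKM at 16.8 mM glucose, a log2 change of 1.62 (SE 0.14, limma adjusted p = 5.54e-04) and of 2.66 in voom (SE 0.22, adjusted p = 7.15e-08), where no RPKM is added. Its mean at 2.8 mM was 0.364 RPKM, so that it entered the main test through its level at 16.8 mM. The groups did not overlap, and as with *Ldha* the 2.8 mM replicate 2 library was the higher of its group. *Bsg*, which encodes basigin, the chaperone that brings these transporters to the membrane, went from 45.9 and 44.3 to 83.9 and 67.7 RPKM, a log2 change of 0.74 (adjusted p = 0.0108).

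*Pkm*, the pyruvate kinase gene that makes the M1 and M2 enzymes, went from 26.7 and 29.0 to 70.0 and 60.1 RPKM, a log2 change of 1.21 (limma adjusted p = 0.00141). *Pdk1*, whose kinase switches off pyruvate dehydrogenase, went from 1.09 and 1.54 to 2.83 and 2.43 RPKM, a log2 change of 0.79 (adjusted p = 0.00552). Those that fell were *Ldhd*, the mitochondrial D-lactate dehydrogenase gene, with a log2 change of −0.38 (adjusted p = 0.0198), and *Mpc2*, a subunit of the mitochondrial pyruvate carrier, with −0.29 (adjusted p = 0.0309). *Mpc2* averaged 0.950 RPKM at 16.8 mM and entered the main test through its level at 2.8 mM, and in voom its log2 change was −0.42 (adjusted p = 0.00590). *Ldhb*, the heart form of lactate dehydrogenase, stood at 0.569 and 0.555 RPKM at 2.8 mM and at 0.540 and 0.521 RPKM at 16.8 mM, and its voom log2 change was −0.08 (adjusted p = 0.636). *Slc16a7*, which encodes MCT2, had 0.0099 to 0.0121 RPKM over a long genomic span, on a mean of 107 reads, and a voom log2 change of −0.11 (adjusted p = 0.727).

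**Figure D3:**
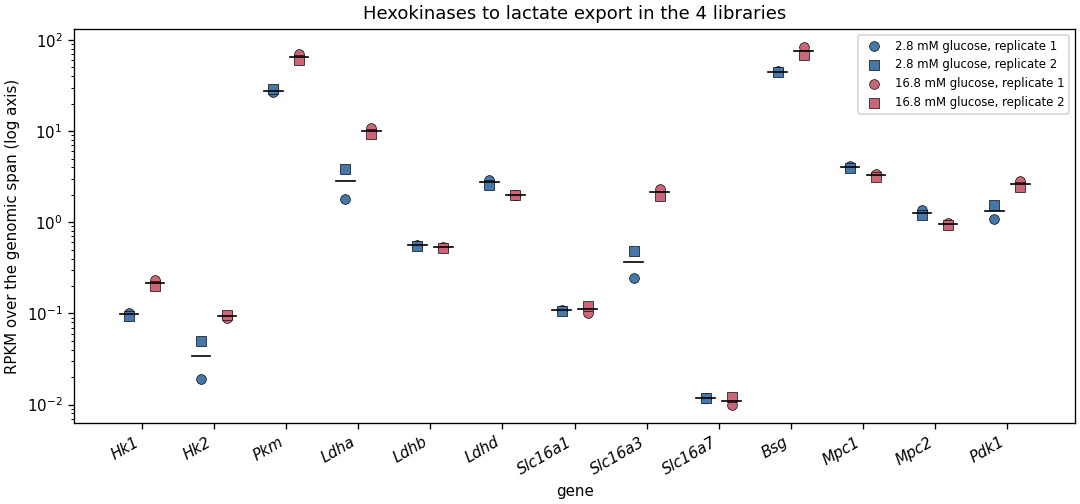
RPKM of genes from the hexokinases to lactate export in each of the 4 libraries on a log axis, with circles for replicate 1, squares for replicate 2 and bars for the group means. *Pkm*, *Ldha*, *Slc16a3*, *Bsg* and *Pdk1* are higher in both 16.8 mM libraries, whereas *Slc16a1* and *Slc16a7* overlap between the groups.

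Another 8 genes known to be low in beta cells were read beside the listed ones, and 7 of them had a mean under 1 RPKM. *Slc16a3* was the only one in the main test. In voom 4 of the 8 were higher and 1 lower. Those that were called, apart from *Slc16a3*, are named here after their values were seen. *Hk1*, a low-Km hexokinase, went from 0.101 and 0.0947 to 0.234 and 0.202 RPKM, a voom log2 change of 1.15 (adjusted p = 1.91e-06). *Hk2*, a second low-Km hexokinase, went from 0.0190 and 0.0494 to 0.0880 and 0.0972 RPKM, a voom log2 change of 1.61 (adjusted p = 3.81e-04). *Yap1*, the Hippo pathway co-activator, changed by 0.51 (adjusted p = 0.0279), and *Cat*, which encodes catalase, by −0.88 (adjusted p = 5.09e-05).

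Levels of exocrine and duct markers moved in part with *Ldha* and are given here for that reason. The 11 markers summed to 103 and 216 RPKM at 2.8 mM and to 195 and 383 RPKM at 16.8 mM glucose, and none was at 0. Their geometric mean, relative to 2.8 mM replicate 1, was 2.00 in 2.8 mM replicate 2, 1.98 in 16.8 mM replicate 1 and 3.57 in 16.8 mM replicate 2. In voom 9 of the 11 were higher and 1 lower, and in the main test 1 of 9 was higher and 1 lower. Within the 16.8 mM group *Ldha* in replicate 2 was 0.877 of its level in replicate 1, and the exocrine markers were 1.81 times as high. From 2.8 mM replicate 2 to 16.8 mM replicate 1 the ratio was 0.988 for the exocrine markers and 2.81 for *Ldha*, 4.81 for *Slc16a3*, 2.41 for *Pkm*, 1.90 for *Bsg* and 1.84 for *Pdk1*. Over the same pair the other marker lists had ratios of 2.36 (beta), 1.76 (endothelial), 1.51 (stromal), 1.504 (delta and PP), 1.42 (macrophage), 1.25 (alpha) and 0.984 (Schwann). These are single pairs of libraries, and the part of exocrine or other cells in the *Ldha* values was not tested. The 9 beta cell markers were all higher at 16.8 mM in voom, and in the main test 7 of 9 were higher and 0 lower. Their sum went from 22940 and 20590 to 43910 and 41160 RPKM, most of it from *Ins1*, *Ins2* and *Iapp*.

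*Zfp36l1*, at chr12:81208747-81214000 on the minus strand, encodes a protein of the TIS11 family that binds AU-rich elements in mRNA and hastens its decay. Its level was 1.01 and 0.890 RPKM at 2.8 mM and 1.52 and 1.39 RPKM at 16.8 mM glucose. The groups did not overlap, and the replicates lay close together. The means were 0.950 ± 0.084 and 1.45 ± 0.093 RPKM (SD, n = 2 libraries each), a ratio of 1.53. The log2 change was 0.43 (SE 0.084, limma adjusted p = 0.00954), and in voom, where no RPKM is added to the value, it was 0.61 (SE 0.16, adjusted p = 0.00514). The mean at 2.8 mM lay under the minimum of 1 RPKM, so that the gene entered the main test through its level at 16.8 mM. The call was lost when entries of every level entered the fit (adjusted p = 0.0638). The antisense gene Gm17591 overlaps this locus, and whether strand was used in counting was not stated, so reads of both cannot be told apart.

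Its family did not move as one. *Zfp36*, which encodes tristetraprolin, went from 3.23 and 2.76 to 4.15 and 3.90 RPKM, a log2 change of 0.38 (limma adjusted p = 0.0333). *Zfp36l2*, the nearest relative, went from 9.69 and 8.65 down to 6.74 and 6.45 RPKM, a log2 change of −0.44 (adjusted p = 0.0231). Of the 12 family members and decay factors in this list, 7 were tested, and these were the only calls, 1 higher and 1 lower. The list's median log2 change was −0.03. In voom 1 of 11 was higher and 2 were lower.

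*Maf* encodes the c-MAF transcription factor, which islets use mainly in alpha cells. At chr8:118206842-118231694 on the minus strand, it was measured by few reads, about 18 and 9 at 2.8 mM and 24 and 13 at 16.8 mM glucose. The values were 0.0846 and 0.0476 RPKM against 0.109 and 0.0703 RPKM, and the groups overlapped. With a mean of 16 reads it was left out of voom, and in limma without a minimum its adjusted p was 0.553. A change in *Maf* was not detectable at this depth.

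All other MAF genes in this list except *Nrl* had higher RPKM than *Maf* on the span scale. *Mafa*, the activator of the insulin genes in mature beta cells, went from 13.7 and 10.2 to 57.5 and 76.2 RPKM, a log2 change of 2.44 (SE 0.19, limma adjusted p = 4.20e-04), the largest of the 6 family members in this list. *Maff*, a small MAF protein gene without an activation domain, went from 1.29 and 1.17 to 2.67 and 2.09 RPKM, a log2 change of 0.73 (adjusted p = 0.00413). Of 5 tested family members 2 were higher and 0 lower, and in voom 2 of 6 were higher and 2 lower. The 5 alpha cell markers summed to 2172 and 1665 RPKM at 2.8 mM and to 2114 and 1486 RPKM at 16.8 mM, lower in replicate 2 of each group, as was *Maf*. The sums of the delta and PP, endothelial and macrophage markers were lower in replicate 2 of each group too. *Mafa* is 1 of the beta cell markers. Whether the alpha cell share bears on *Maf* was not tested.

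*Smad3*, at chr9:63494574-63605801 on the minus strand, carries signals of TGF-beta and activin receptors to the nucleus. Its group means were the closest to each other among the listed genes, with 0.0369 and 0.0394 RPKM at 2.8 mM and 0.0351 and 0.0423 RPKM at 16.8 mM glucose, which is 228 to 240 reads in each library. The groups overlapped, the ratio of the means was 1.01, and the voom log2 change was 0.01 with a 95% interval of −0.37 to 0.39 (adjusted p = 0.976). The interval leaves room for a fold between 0.773 and 1.31.

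Around *Smad3*, 24 pathway genes were read, of which 3 reached the main test. Of these, 2 were higher and 0 lower. *Tgif1*, a co-repressor of SMAD proteins, went from 1.24 and 1.28 to 1.57 and 1.81 RPKM, a log2 change of 0.31 (limma adjusted p = 0.0332). *Smad2*, the other receptor-regulated SMAD of this branch, went from 0.676 and 0.703 down to 0.424 and 0.409 RPKM, a voom log2 change of −0.73 (adjusted p = 2.17e-05). Over the whole list voom called 5 of 24 higher and 7 lower, with a median of −0.13.

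*Pdgfra*, the receptor for platelet-derived growth factors that marks stromal cells, lies at chr5:75548316-75594229 on the plus strand. It stood at 0.0224 and 0.0064 RPKM at 2.8 mM and at 0.0153 and 0.0164 RPKM at 16.8 mM glucose, about 55, 14, 39 and 35 reads. The low value is that of 2.8 mM replicate 2, and the groups overlapped. The voom log2 change was 0.36 with a wide 95% interval of −0.58 to 1.29 (adjusted p = 0.545). In that same library all 9 stromal and pericyte markers were lower than in 2.8 mM replicate 1 (*Pdgfrb* is among them, *Pdgfra* is not), and their sum went from 4.45 to 2.50 RPKM, beside 3.37 and 3.46 RPKM at 16.8 mM. Also lower there than in replicate 1 were all endothelial (9), macrophage (8), alpha (5) and delta and PP (3) markers. The same held for 8 of 9 beta, 4 of 5 Schwann and 2 of 11 exocrine and duct markers. How far the stromal share sets the *Pdgfra* value was not tested. The sister receptor *Pdgfrb* was low in the same library, with 0.486 and 0.258 RPKM at 2.8 mM and 0.423 and 0.337 RPKM at 16.8 mM, and its voom log2 change was 0.09 (adjusted p = 0.759). Of 6 ligands and receptors in the list, none reached the main test. In voom 1 was lower, the ligand gene *Pdgfa*, which went from 0.993 and 0.972 to 0.768 and 0.757 RPKM, a log2 change of −0.37 (adjusted p = 0.0119).

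*Cxcl12*, at chr6:117118553-117131385 on the plus strand, encodes the chemokine SDF-1. Its level was 0.264 and 0.222 RPKM at 2.8 mM and 0.294 and 0.241 RPKM at 16.8 mM glucose. The groups overlapped, and replicate 2 was the lower library in each. The voom log2 change was 0.14 with a 95% interval of −0.28 to 0.56 (adjusted p = 0.603). Another *Cxcl12* entry had 0.0969 and 0.0972 RPKM at 2.8 mM and 0.1336 and 0.1115 RPKM at 16.8 mM. In that entry the groups did not overlap, and replicate 2 was not the lower library at 2.8 mM. Its adjusted p in limma without a minimum was 0.199. The receptor gene *Cxcr4* showed the same order as the entry used, with 1.13 and 0.784 RPKM against 1.57 and 1.10 RPKM. The log2 change of *Cxcr4*, 0.33, did not pass the test (limma adjusted p = 0.140). The 9 endothelial markers were likewise lower in replicate 2 of both groups, all 9 of them, with sums of 4.41 and 3.09 RPKM at 2.8 mM and 5.02 and 3.60 RPKM at 16.8 mM. All alpha, delta and PP, and macrophage markers were lower in replicate 2 of both groups too. The part of any of these cells in the *Cxcl12* and *Cxcr4* values was not tested. Of the 3 receptors and proteases in this list 1 was higher in voom, the scavenger receptor gene *Ackr3*, named here after its values were seen, with a log2 change of 1.07 (adjusted p = 0.0174) on about 34 reads.

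*Igfbp4* encodes a secreted protein that binds insulin-like growth factors and keeps them from their receptor. At chr11:98902558-98913969 on the plus strand, it was the one listed gene whose 16.8 mM values both lay under its 2.8 mM values, with 0.281 and 0.233 RPKM against 0.200 and 0.183 RPKM. The ratio of the means was 0.745, and the voom log2 change was −0.42 with a 95% interval of −0.87 to 0.03, which did not pass the test (adjusted p = 0.125). A lack of overlap in this direction was common, since 46.7% of 19139 entries were lower in both 16.8 mM libraries. A further 23.3% were higher in both, as were *Ldha* and *Zfp36l1*, and 7 of the 10 listed genes overlapped between the groups.

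*Igfbp3*, the main carrier of these growth factors in blood, went from 1.08 and 1.16 to 4.91 and 3.12 RPKM, a log2 change of 1.45 (SE 0.18, limma adjusted p = 0.00172). *Igfbp5* had the highest RPKM of this list on the span scale, with 7.11 and 5.35 RPKM at 2.8 mM and 6.34 and 5.77 RPKM at 16.8 mM, and a log2 change of −0.03 (adjusted p = 0.896). Of 14 binding proteins, ligands, receptors and proteases, 4 were tested, with 1 higher and 0 lower, and in voom 5 of 11 were higher and 1 lower.

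*Oat* encodes ornithine aminotransferase, the mitochondrial enzyme that links ornithine to glutamate and proline. At chr7:139749158-139768081 on the minus strand, it lies inside the annotated span of *Fgfr2*, on the same strand. Its level was 0.422 and 0.265 RPKM at 2.8 mM and 0.476 and 0.400 RPKM at 16.8 mM glucose. The low library was 2.8 mM replicate 2, and the groups overlapped because 2.8 mM replicate 1 exceeded 16.8 mM replicate 2. The ratio of the means was 1.27, and the voom log2 change was 0.37 with a 95% interval of −0.02 to 0.77, which did not pass the test (adjusted p = 0.121).

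Among 20 genes of ornithine, arginine and proline metabolism, 12 were tested, of which 1 was higher and 3 lower, with a median log2 change of −0.13. *Odc1*, whose enzyme makes putrescine from ornithine, went from 20.3 and 19.4 to 30.2 and 27.8 RPKM, a log2 change of 0.54 (limma adjusted p = 0.0166). *Glul*, the glutamine synthetase gene, fell most among those in the main test, from 37.7 and 39.5 to 13.6 and 14.7 RPKM, a log2 change of −1.42 (SE 0.12, adjusted p = 5.38e-04). *Pycr1* and *Aldh18a1*, which encode enzymes of proline synthesis, changed by −0.75 (adjusted p = 0.00229) and −0.50 (adjusted p = 0.00902). In voom 5 of 19 were higher and 8 lower.

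*Acot7* encodes an acyl-CoA thioesterase, which splits fatty acyl-CoA into free fatty acid and coenzyme A. At chr4:151552243-151645964 on the plus strand, it stood at 0.0371 and 0.0339 RPKM at 2.8 mM and at 0.0389 and 0.0369 RPKM at 16.8 mM glucose. The groups overlapped slightly, and the ratio of the means was 1.07. The voom log2 change was 0.09 with a 95% interval of −0.34 to 0.53 (adjusted p = 0.738). The annotated gene Gm13096 lies inside its span on the same strand. The study's methods describe counts over RefSeq exons for sorted alpha and beta cells, and what was counted here was not stated. Whether reads of Gm13096 entered the *Acot7* value was not determined. Of 12 other thioesterase genes 4 were tested, and *Acot10* alone was called, from 1.73 and 1.48 to 2.36 and 2.04 RPKM, a log2 change of 0.36 (limma adjusted p = 0.0345) that did not pass in voom (adjusted p = 0.0835). *Acot10* is a near copy of *Acot9*, and reads of the pair may be shared. *Acot2*, a mitochondrial thioesterase gene with a close copy in *Acot1*, stood at 1.09 and 0.970 RPKM at 2.8 mM and at 0.975 and 0.769 RPKM at 16.8 mM, with a voom log2 change of −0.24 (adjusted p = 0.277). In voom 1 of the 12 was higher and 1 lower.

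The spread between replicates differed between the listed genes. In the 2.8 mM group 8 of the 10 were lower in replicate 2, and in the 16.8 mM group 7 of the 10. The share of all entries lower in replicate 2 was not computed, so these counts cannot be read as a trait of the listed genes. *Maf*, *Oat*, *Cxcl12*, *Igfbp4*, *Acot7* and *Zfp36l1* were lower in replicate 2 of both groups, as were the alpha, delta and PP, endothelial and macrophage marker lists. *Ldha* was the only one of the 10 that was higher in replicate 2 at 2.8 mM by more than 1.5 times. There, *Slc16a3* was 2.00 times, *Hk2* 2.60 times and *Pdk1* 1.40 times as high in replicate 2 as in replicate 1. The same ratio was 1.085 for *Pkm*, 0.966 for *Bsg* and 0.937 for *Hk1*, which also rose with glucose. The 8 macrophage and leukocyte markers summed to 22.9 and 17.0 RPKM at 2.8 mM and to 24.4 and 19.0 RPKM at 16.8 mM. The 3 delta and PP cell markers summed to 1549 and 1169 RPKM and to 1831 and 1513 RPKM. The 5 Schwann cell markers summed to 1.55 and 1.48 RPKM and to 0.647 and 0.614 RPKM. No marker of these lists was at 0 in all libraries, and their part in the listed genes' values was not tested.

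**Figure D4:**
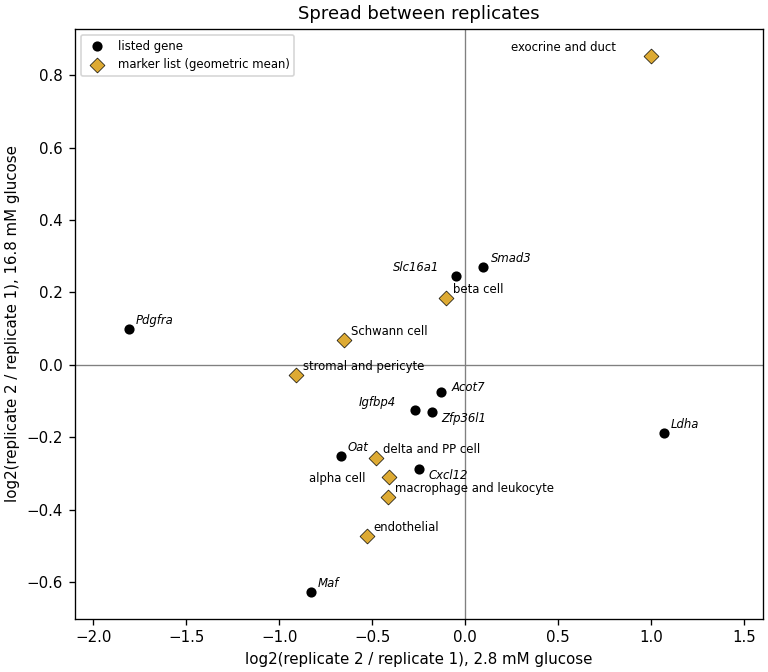
Ratio of replicate 2 to replicate 1 on a log2 scale, at 2.8 mM (x axis) and 16.8 mM glucose (y axis), for the 10 listed genes (black circles) and for the geometric means of 8 marker lists (yellow diamonds). *Ldha* lies at 1.07 and −0.19, the exocrine and duct markers at 0.999 and 0.85, and *Pdgfra* at −1.81 and 0.10.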

How the data were processed

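A single RPKM table was deposited by the authors, with 33923 transcript entries (28047 of them with distinct values) and 1 column per library. No column of sample values was left out. Libraries were made with the TruSeq RNA v2 kit. The submitters' processing notes name STAR, bedtools, DESeq and the mm9 genome, without stating their settings for these libraries. In the deposited table, RPKM values correspond to whole reads set against genomic spans, introns included. Depth was recovered from genes with few reads: 78.0% to 79.3% of the low values in a library came within 0.1 of a whole read. Reads were reconstructed with spans from GENCODE vM1 (NCBI build 37) or RefSeq entries, known for 98.4% of distinct entries. For *Igfbp4* no span gave whole reads, and *Ldha* had too many reads for rounding to tell spans apart. The read numbers of both are therefore approximate.

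Entries that averaged 1 RPKM or more were tested on log2(RPKM + 0.5) with limma 3.58.1 in R 4.3.3 (variance trend, empirical Bayes, Benjamini-Hochberg adjustment, threshold 0.05). The added 0.5 RPKM understates changes of low genes. Voom on reconstructed reads was the alternative for low genes. These reads are estimates, and their errors cover neither PCR duplicates nor animals. Both fits were tested on simulated data. Other steps used Python 3.11.15, pandas 2.3.3, numpy 2.4.6 and matplotlib 3.10.9.

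The 10 genes, the partner and marker lists and the tests were chosen with earlier results of these data known. Named were all 10 genes, up to 4 called partners per list with the largest change, and a set of close relatives, ligands and receptors whatever their call. Values of 2 genes that this rule covers are not reported here. Correlations of log2 values were 0.98 within groups and 0.927 to 0.939 across. Alternatives were 0.1 or 1 RPKM added, other minimums, quantile normalization, median centring, no trend, 1 entry per gene, a replicate block, voom with and without it, and leaving out each library.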

Additional observations from a re-analysis of the deposited data

How the results depend on the processing

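Of the values set against their alternatives, those of *Ldha* and *Zfp36l1* kept their direction throughout. With no minimum, *Ldha* stayed at 1.74 on the log2 scale but no longer passed (adjusted p = 0.0933), nor did *Zfp36l1* at 0.43 (adjusted p = 0.0638), so that 0 of the 10 listed genes were called higher. With 1 RPKM required in every library 1 was higher, because *Zfp36l1* was not tested there. The log2 ratio of mean RPKM was 0.61 for *Zfp36l1*, since no RPKM is added to it. Leaving out 1 library at a time gave 1.29 to 2.18 for *Ldha* and 0.37 to 0.49 for *Zfp36l1*. Adjusted p ranged from 7.24e-38 to 0.0933 for *Ldha* and from 8.92e-04 to 0.0638 for *Zfp36l1*, the lowest value for *Ldha* in a fit with a single library at 2.8 mM.

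Over all entries, 838 were higher and 1790 lower. The number higher was 1420 when the minimum mean was 0.1 RPKM, 1576 with quantile normalization, 1662 with median centring and 2521 in voom, and 714 to 904 when a library was left out. The number lower was 3480 when the minimum mean was 0.1 RPKM, 5427 in voom, and 1059 to 1865 when a library was left out, lowest without 16.8 mM replicate 2. Higher entries made up 31.9% of calls, 42.3% with quantile normalization, 44.1% with median centring, 42.5% without 2.8 mM replicate 1 and 42.0% without 16.8 mM replicate 2. Of the partner genes 12 were higher and 6 lower, against 30 and 28 in voom, where more genes were tested. The number lower was 18 when the minimum mean was 0.1 RPKM and 10 with quantile normalization. Leaving out a library gave 8 to 12 higher and 3 to 8 lower, lowest for the latter without 2.8 mM replicate 1. The cause of these shifts was not tested.

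The libraries share replicate numbers, but the labels do not say what a number stands for. Deviations of same-numbered libraries correlated at 0.31, over 2 pairs only. With a replicate block, 2835 entries were lower and 13 partner genes were lower. The block in voom gave 3482 higher and 7366 lower entries, and 35 higher and 38 lower partner genes. There *Oat* (0.34, adjusted p = 0.0321) and *Igfbp4* (−0.43, adjusted p = 0.0409) were called as well, which made 3 of the 10 listed genes higher and 1 lower.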

Other observations

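Some partner genes too low for the main test had large values in voom, and they are named here after those values were seen. *Acot12*, a cytosolic acetyl-CoA thioesterase gene, went from 0.0092 and 0.0095 to 0.0502 and 0.0415 RPKM, a log2 change of 2.29 (limma voom adjusted p = 2.02e-05) on a mean of about 70 reads. *Prodh2*, which encodes a hydroxyproline dehydrogenase, went from 0.525 and 0.540 down to 0.138 and 0.118 RPKM, a log2 change of −2.05 (adjusted p = 1.27e-07). *Stc1*, the stanniocalcin 1 gene, went from 0.143 and 0.191 to 0.525 and 0.406 RPKM, a log2 change of 1.501 (adjusted p = 4.38e-05).

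In the TGF-beta list the ligand gene *Tgfb3* went from 0.0545 and 0.0414 to 0.105 and 0.120 RPKM, a log2 change of 1.22 (limma voom adjusted p = 0.00111). The co-receptor gene *Tgfbr3* went from 0.0660 and 0.0645 down to 0.0305 and 0.0308 RPKM, a log2 change of −1.09 (adjusted p = 1.40e-05). The receptor gene *Tgfbr1* changed by −0.53 (adjusted p = 3.83e-04). In the IGF list the receptor gene *Igf1r* changed by 0.87 (adjusted p = 9.41e-07), and *Pappa2*, whose protease cleaves IGF binding proteins, by 1.16 (adjusted p = 8.61e-07).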
